A study of Homo sapiens with 4 samples.

Results

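A set of 73 genes was read in both control libraries of A549 cells and was at or near 0 in both libraries of A549 cells overexpressing USP12. The genes were chosen by their counts in this comparison, as the genes with at least 10 fragments in both control libraries and at most 3 in both USP12 libraries. Of 50868 genes in the count files, 13939 had at least 10 counts in both control libraries and 83 of these met the USP12 limit as well, which is 0.595%. The choice left out gene families by 26 starts of a symbol, such as KLR, MAGEA, CCL, TFF, AGR and AHSG, which removed 10 of the 83. The remaining 73 genes are described here. Since the counts chose them, the difference between the groups is given as a description and carries no test, and the groups do not overlap by construction.

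A549 is a human lung adenocarcinoma line, and all 4 libraries came from it. The 2 libraries labelled control came from cells which the study treats as vector controls, and the other 2 came from cells overexpressing USP12, a deubiquitinating enzyme that removes ubiquitin from other proteins. The labels do not say whether the 2 libraries of a group came from separate cultures, so any p-value measures the spread between these libraries, which may be technical. In such bulk RNA, fewer cells that use a gene and less RNA of it per cell cannot be told apart.

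A gene is silent when its promoter does not recruit RNA polymerase. In human cells, promoters fall broadly into those rich in the dinucleotide CpG, which are commonly open in many cell types, and those poor in CpG, which more often serve genes used in few tissues or in response to a signal. Tumour cell lines commonly transcribe at a low level genes that belong to other tissues. A low read count is therefore not rare for a gene in a cell line, and at 10 to 20 fragments sampling alone moves a value considerably.

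The promoters of 5 members are shown because they are among the genes with the most counts in the control libraries and because they include both CpG-poor and CpG-dense stretches. Each is the 250 bases before the RefSeq transcription start in GRCh38.p14, written 5′ to 3′ along the gene's strand, with every CpG in capitals. MGAM2 lies on the plus strand (chr7:142111468-142111717), BST2 on the minus strand (chr19:17405631-17405880), NMUR2 on the minus strand (chr5:152405280-152405529), HK2 on the plus strand (chr2:74833877-74834126) and CHST2 on the plus strand (chr3:143119521-143119770).
MGAM2: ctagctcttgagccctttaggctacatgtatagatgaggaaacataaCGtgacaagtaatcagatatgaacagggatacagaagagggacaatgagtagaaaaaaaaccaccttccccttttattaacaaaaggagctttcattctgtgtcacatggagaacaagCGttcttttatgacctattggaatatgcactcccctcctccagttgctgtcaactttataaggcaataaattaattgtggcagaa
BST2: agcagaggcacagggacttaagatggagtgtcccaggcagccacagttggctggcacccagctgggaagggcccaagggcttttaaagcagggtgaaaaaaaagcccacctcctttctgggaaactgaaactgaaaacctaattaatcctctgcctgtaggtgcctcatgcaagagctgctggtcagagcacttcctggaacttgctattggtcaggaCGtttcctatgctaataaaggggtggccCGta
NMUR2: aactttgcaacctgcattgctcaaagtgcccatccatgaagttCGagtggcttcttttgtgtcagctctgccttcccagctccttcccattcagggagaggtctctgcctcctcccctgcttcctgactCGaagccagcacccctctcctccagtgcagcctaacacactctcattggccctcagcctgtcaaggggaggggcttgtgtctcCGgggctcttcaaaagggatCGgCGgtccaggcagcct
HK2: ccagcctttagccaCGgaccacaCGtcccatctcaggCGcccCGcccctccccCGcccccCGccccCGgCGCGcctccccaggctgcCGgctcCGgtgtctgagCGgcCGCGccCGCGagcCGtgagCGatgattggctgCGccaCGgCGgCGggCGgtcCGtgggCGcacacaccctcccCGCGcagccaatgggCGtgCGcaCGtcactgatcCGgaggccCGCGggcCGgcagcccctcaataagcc
CHST2: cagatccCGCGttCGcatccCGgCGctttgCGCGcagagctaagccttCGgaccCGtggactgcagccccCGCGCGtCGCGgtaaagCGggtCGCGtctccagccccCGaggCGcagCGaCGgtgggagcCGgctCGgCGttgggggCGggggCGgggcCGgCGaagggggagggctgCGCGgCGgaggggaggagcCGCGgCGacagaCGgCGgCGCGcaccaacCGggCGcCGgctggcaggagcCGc
The stretches of MGAM2 and BST2 held 2 CpG each and that of NMUR2 held 5, whereas those of HK2 and CHST2 held 34 and 42. In the BST2 stretch, the core of the interferon-stimulated response element, GAAA repeated after a gap of 2 bases, was found beginning 130 and 124 bases before the start, in overlapping matches. In the MGAM2 stretch the letters TATAAA, the TATA box, were found on the opposite strand at 31 bases before the start. A match of letters describes the sequence and does not show that a factor binds there. The RefSeq start of NMUR2 lies 28089 bp from the outermost 5′ end that GENCODE release 44 gives for the gene, so its promoter window counted further on is another stretch.

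The libraries held between 14280081 and 16305356 counts. USP12 itself was read 201 and 621 times without the overexpression and 24235 and 32274 times with it, which is the direction the labels give. Its log2 fold change was 6.32 (SE 0.57, n = 2 libraries a group), with an adjusted p of 0.0975 in edgeR's quasi-likelihood test. At an adjusted p under 0.05, that test called 0 of 15222 genes lower (0%) and 0 higher. At an unadjusted p under 0.05, 692 were lower and 463 higher, and edgeR's exact test called 262 lower and 167 higher after adjustment. The keratins KRT7, KRT8, KRT18 and KRT19 and the adhesion genes EPCAM and CDH1, which mark epithelial cells, had at least 10 counts in all 4 libraries, whereas the surfactant genes SFTPA1, SFTPB and SFTPC and the lung factor NKX2-1 had at most 5 in any. Of 14 immune markers 9 had at most 3 counts in all 4 libraries, PTPRC among them, and the summed immune level lay between 53.3 and 112 in the controls, in CPM (counts relative to the size of the library after TMM scaling), and between 60.6 and 77.4 CPM in the USP12 libraries. The 5 endothelial markers summed to 15.4 and 8.58 CPM in the controls and to 0.503 and 1.45 CPM in the USP12 libraries, mostly CDH5 and PECAM1, and their part in the results was not tested.

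The members' counts in the controls were low. Summed over all 73, control libraries held 3695 and 2973 counts and USP12 libraries 53 and 68. The median member had 22 and 17 counts in the controls and 0 in each USP12 library. Only 13 members had at least 20 counts in both controls, 6 had at least 50 and 3 had at least 100. In the USP12 libraries 29 members had 0 counts in both, 25 had 0 in one and 19 had 0 in neither. A count of 0 allows up to 3 counts, or 0.216 and 0.208 CPM in USP12 replicates 1 and 2, so these genes were near or below what this depth can read, not shown to be absent. After TMM scaling, the median over members of the mean control level was 1.43 CPM. The 3 genes of highest control level were MGAM2, BST2 and NMUR2 by the lower of their control libraries.

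**Figure D1:**
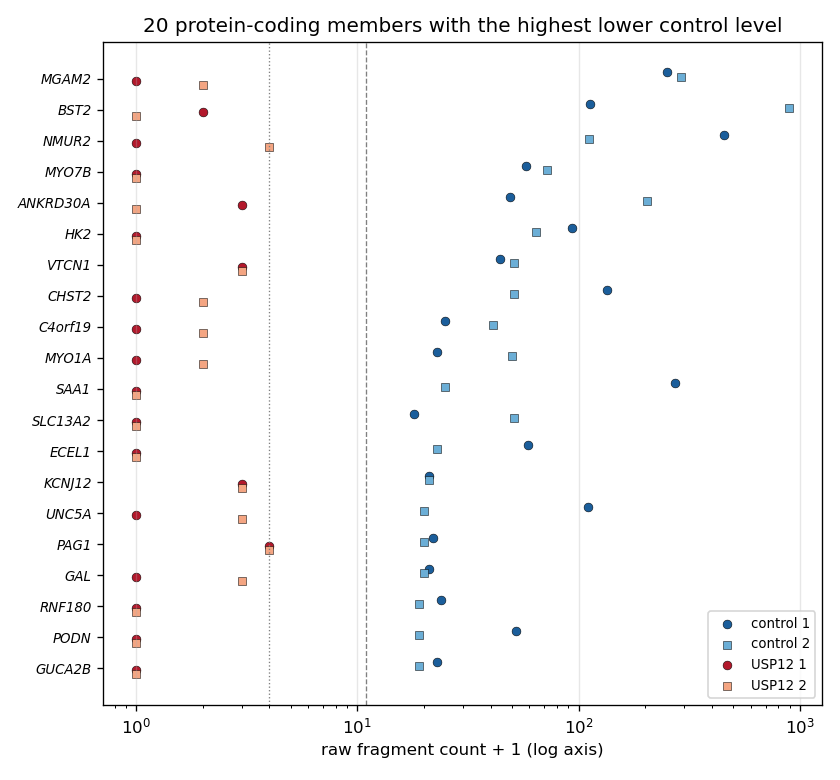
Raw fragment counts plus 1, on a log axis, of the 20 protein-coding members with the highest level in the lower of their control libraries, with 1 point for each of the 4 libraries. The dashed and dotted lines mark the limits of 10 and 3 counts that chose the genes, so the gap between blue and red points is set by the choice, and MGAM2, BST2 and NMUR2 lie at 110 counts or more in both controls.

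A fold against 0 counts is only a lower bound, computed here against a floor of 3 counts in each USP12 library. Over the 29 members at 0 in both USP12 libraries, that bound ran from 3.40 to 51.9 with a median of 7.38. The other 44 had a ratio of summed, TMM-scaled counts between 3.99 and 912, with a median of 15.3. Each ratio named below has an exact 95% interval in parentheses that covers counting error only, not the spread between cultures.

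Among genes known from the absorptive surface of the intestine, MGAM2, a maltase-like glycosidase gene next to the intestinal maltase MGAM, had 249 and 290 counts in the controls and 0 and 1 with USP12. It was 488-fold lower (87.3 to 19323), and its control libraries were the closest of the 3 leading genes. MYO7B, an unconventional myosin of the complex that links the tips of microvilli, had 57 and 71 counts in the controls and 0 in both USP12 libraries, at least 19.5-fold lower. MYO1A, a brush border myosin that ties the actin core of a microvillus to the membrane, had 22 and 49 counts against 0 and 1, and was 64.3-fold lower (11.2 to 2576). Both myosins were almost unread with USP12, which the count limits required. SLC13A2, a sodium-coupled transporter of citrate and succinate, had 17 and 50 counts against 0 and 0, at least 9.57-fold lower. GUCA2B, which encodes the intestinal peptide uroguanylin, had 22 and 18 counts against 0 and 0, at least 6.28-fold lower.

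Other genes of the same structure were read for comparison, chosen after the members were known. The microvillus scaffold ANKS4B, a partner of MYO7B, had 170 and 496 counts in the controls and 12 and 11 with USP12. USH1C, the third protein of that complex, had 505 and 277 against 28 and 26, and the actin bundler VIL1 had 286 and 85 against 5 and 5. These had too many USP12 counts to be members. Their scaled levels did not overlap between the groups, which held in this direction for 16.9% of all genes tested and in the other for 19.6%. ESPN had 20 and 8 against 0 and 0. EPS8, an actin-capping protein used in many cell types, had 1185 and 3341 against 1253 and 1606, so its groups lay close together. The protocadherins of the tip link were scarcely read, with CDHR2 at 0 and 1 against 6 and 6 and CDHR5 at 0 and 11 against 0 and 1. The sucrase SI, the guanylin gene GUCA2A and the uroguanylin receptor GUCY2C had at most 5 counts in any library. MGAM had 564 and 661 counts in the controls and 102 and 170 with USP12.

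**Figure D2:**
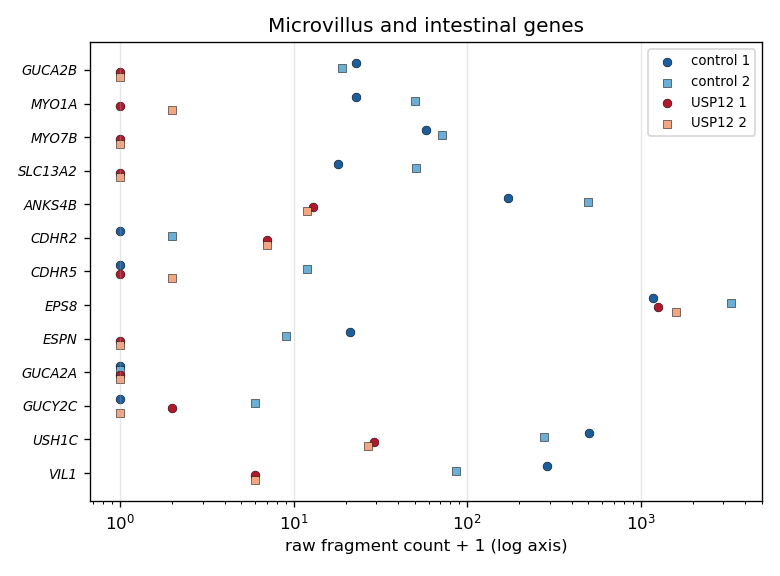
Raw fragment counts plus 1, on a log axis, of 13 microvillus and intestinal genes in the 4 libraries, members first. The 4 members GUCA2B, MYO1A, MYO7B and SLC13A2 lie at 0 or 1 count in the USP12 libraries, the non-members ANKS4B, USH1C and VIL1 lie lower there but stay readable, and EPS8 overlaps between groups.

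Members with roles in innate defence and immune recognition had some of the highest control counts. BST2, an interferon-induced membrane protein that tethers budding enveloped viruses, had 112 and 895 counts in the controls and 1 and 0 with USP12, and was 912-fold lower (163 to 36071). Control replicate 2 held most of its counts, so the ratio depends on which control is used. VTCN1, the B7 family checkpoint ligand B7-H4 that restrains T cells, had 43 and 50 counts against 2 and 2, and was 21.1-fold lower (7.96 to 78.9). Of the other B7 ligands, CD274 had 15 and 70 counts against 10 and 4, ICOSLG 91 and 27 against 14 and 24, and CD276 634 and 539 against 294 and 562. CD80, CD86 and PDCD1LG2 were at 0 or 1 in all 4 libraries.

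SAA1 and SAA2, acute-phase serum amyloid genes that the liver and epithelia induce in inflammation, lie 17592 bp apart on chromosome 11. SAA1 had 273 and 24 counts in the controls and 0 in both USP12 libraries, at least 51.9-fold lower, and SAA2 had 106 and 15 against 0 and 0. Both were far higher in control replicate 1. Their transcripts are near-identical, so uniquely mapped fragments may have been lost or split between them. PI3, the elastase inhibitor elafin of mucosal surfaces, followed the same control pattern with 135 and 17 counts against 0 and 0. Its relative and neighbour SLPI had 3722 and 2773 counts against 163 and 164.

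LYZ, which encodes lysozyme, had 11 and 27 counts against 1 and 3 and was 8.61-fold lower (3.10 to 33.2). It was the one member among the immune cell markers. CD74, the invariant chain of MHC class II, and SH2D1B, an adaptor of SLAM receptors, each had 31 and 10 counts against 0 and 0. The class II genes HLA-DRA and HLA-DPA1 and their activator CIITA were at 0 in all 4 libraries, HLA-DRB1 had 8 and 0 counts against 0 and 0, and SH2D1A had at most 1 count. PAG1, a raft-anchored adaptor that recruits the kinase CSK, had 21 and 19 counts against 3 and 3, the smallest ratio of the 20 genes plotted at 6.04 (2.55 to 17.4). VNN1, a pantetheinase, had 27 and 14 against 2 and 0, and PLAC8 had 40 and 13 against 0 and 3. USP41 is a near-copy of the interferon-induced USP18 and had 13 and 34 counts against 2 and 2 beside 105 and 826 against 129 and 124 for USP18, and reads may have been split between the pair.

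Receptors, ligands and channels formed a further group. NMUR2, a receptor for the neuropeptides neuromedin U and neuromedin S, had 454 and 110 counts in the controls and 0 and 3 with USP12, 170-fold lower (58.0 to 828). Its ligand genes NMU and NMS and the receptor NMUR1 had at most 4 counts in any library. GAL, the neuropeptide galanin, had 20 and 19 counts against 0 and 2, 17.7-fold lower (4.57 to 151), with nearly equal controls. UNC5A, a dependence receptor for netrin, had 109 and 19 counts against 0 and 2, 58.0-fold lower (15.7 to 484). Its relatives did not share one pattern. UNC5B had 90 and 157 counts against 17 and 1, UNC5C had 5 and 7 against 56 and 58, and UNC5D had 2 and 90 against 135 and 46.

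KCNJ12, an inwardly rectifying potassium channel, had 20 and 20 counts against 2 and 2, 9.06-fold lower (3.28 to 34.9). Its near-identical copy KCNJ18 was at 0 in all libraries. HCN4, the pacemaker channel of the heart, had 62 and 17 counts against 0 and 0, while HCN2 had 2125 and 1767 against 2447 and 2225. CACNA1B, the pore of the neuronal N-type calcium channel, had 57 and 15 against 0 and 1. SLC1A7, a glutamate transporter of the retina, had 101 and 12 against 0 and 1. It lies 1678 bp from the member PODN on chromosome 1, a secreted leucine-rich proteoglycan gene with 51 and 18 counts against 0 and 0, at least 11.5-fold lower. By raw count, all members of this paragraph but KCNJ12 were higher in control replicate 1.

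Enzymes of metabolism and glycan synthesis included HK2, the inducible hexokinase of muscle and of many tumours. It had 92 and 63 counts in the controls and 0 in both USP12 libraries, at least 24.7-fold lower. The other hexokinases were read in every library: HK1 had 1997 and 1472 counts against 894 and 938, and HKDC1 had 721 and 2256 against 916 and 1108. On the scale of control CPM per kb of exon HK2 was low, at 0.882. CHST2, which adds sulphate to N-acetylglucosamine on glycans such as those selectins bind, had 133 and 50 counts against 0 and 1, 166-fold lower (29.4 to 6584). CHST3 had 1134 and 1244 counts against 578 and 800, CHST7 had 326 and 229 against 122 and 147, and CHST1 had 5 and 1 against 20 and 16, so the family did not move as one. GALNT3, which starts mucin-type glycans, had 12 and 10 counts against 0 and 0, and MGAT4C, which branches N-glycans, had 34 and 10 against 0 and 0. PPARGC1A, a coactivator of mitochondrial biogenesis, had 10 and 30 counts against 1 and 0, while its relative PPRC1 had 1034 and 1745 against 1261 and 1432.

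Of the remaining members with high control counts, ANKRD30A, known as the breast antigen NY-BR-1, had 48 and 202 counts against 2 and 0, 113-fold lower (31.0 to 940). C4orf19 had 24 and 40 against 0 and 1, 58.0-fold lower (10.04 to 2326). It overlaps RELL1 on the opposite strand, which had 47 and 55 counts against 24 and 40. ECEL1, a neuronal membrane metalloprotease gene, had 58 and 22 against 0 and 0, at least 13.2-fold lower. RNF180, a ubiquitin ligase, had 23 and 18 against 0 and 0, at least 6.46-fold lower. CDC42EP5, an effector of the small GTPase CDC42, had 143 and 11 counts against 0 and 0, but its relatives CDC42EP1 to CDC42EP4 all had at least 264 counts in every library. AZGP1, the secreted zinc-alpha-2-glycoprotein, had 50 and 14 against 3 and 2, and ARHGDIG had 34 and 10 against 1 and 2.

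The other protein-coding members had between 10 and 69 counts in each control. They were ITIH6, LDB3, GLDN, NCAN, RP11-164J13.1, TINAG, TEKT3, DCLK1, FRMPD4, CPAMD8, SPERT, C2CD4A, RTBDN, TMEM30B, DUSP13, TAF1L, the zinc finger genes ZFP3, ZNF391, ZNF28 and ZMYND15, and AC011513.3, which stands apart with 236 and 10 counts. TAF1L is a copy of TAF1, which had 320 and 672 counts against 449 and 269. The 5 pseudogenes were NUDT16P1, USP41, CES1P1, ELL2P1 and CES5AP1, and the 7 long non-coding RNA genes were RP5-1033H22.2, RP11-297L17.2, XXbac-BPGBPG55C20.2, EPB41L4A-AS2, FAM222A-AS1, RP5-908M14.10 and RP11-379F4.7. CTD-2231H16.1 and RP11-77H9.2 were not found in GENCODE release 44. Protein-coding genes were thus 59 of 71 annotated members, or 83.1%, beside 88.6% of the annotated genes with at least 10 counts in both controls and 63.6% of those of them below a mean control level of 5 CPM.

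The control libraries were further apart for these genes than for most. Of the 73 members, 53 were higher in control replicate 1 after scaling and 20 in control replicate 2. The median log2 ratio of replicate 1 to replicate 2 was 0.71 for the members. It was 0.03 over the 13939 genes that passed the control limit and 0.13 over 2699 of them below 5 CPM. The limit was set on raw counts, and 10 counts were 0.756 CPM in control replicate 1 and 0.553 CPM in control replicate 2. A gene with equal raw counts, such as TMEM30B with 10 and 10, therefore had a log2 ratio of 0.45. How much of the tilt comes from the limit was not tested. The control libraries differed by more than 4-fold for 21 members, or 28.8%, beside 8.04% of the genes that passed the control limit and 9.60% of the low ones. AC011513.3 with a log2 ratio of 5.01, CDC42EP5 with 4.15, SAA1 with 3.96, SLC1A7 with 3.52, PI3 with 3.44 and SAA2 with 3.27 were among the most apart, and all of these were higher in replicate 1. BST2 at -2.55 and ZFP3 at -2.20 were the most apart in the other direction. The name in the file header of control replicate 1 begins with a different number from those of the other 3 libraries, and the labels do not say what it stands for. Without control replicate 1 the same limits were met by 226 genes, and without control replicate 2 by 287. The size of a difference rested on 1 control library for several genes. With USP12 counts set to at least 3, the fold decrease of 9 of the 20 genes plotted moved by more than 1.5 times when 1 control was left out. The fold by which BST2 was lower was 137 with both controls, 234 without control replicate 1 and 39.99 without control replicate 2. That of SAA1 was 51.9, 6.28 and 97.5, that of NMUR2 95.4, 28.8 and 162, that of UNC5A 21.9, 4.97 and 38.9, and that of CHST2 30.3, 13.1 and 47.5. The values in the same order were 35.0, 52.8 and 17.1 for ANKRD30A, 13.2, 5.75 and 20.7 for ECEL1, 11.5, 4.71 and 18.2 for PODN, and 9.57, 13.1 and 6.07 for SLC13A2. MGAM2 moved little, at 82.4, 75.8 and 88.9.

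**Figure D3:**
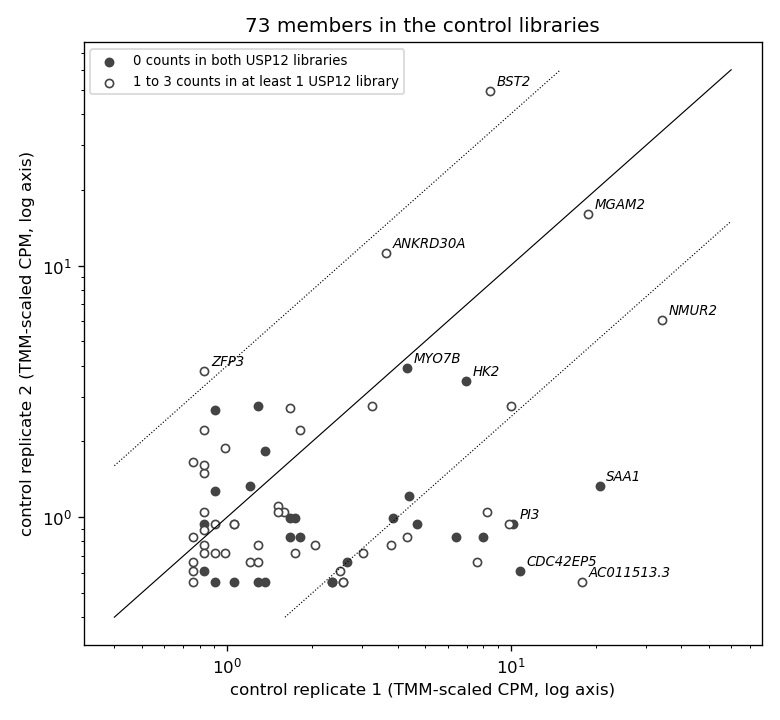
TMM-scaled CPM of the 73 members in control replicate 1 (x axis) and control replicate 2 (y axis), both on log axes, with equality as a solid line and a 4-fold difference as dotted lines. More members lie below the line of equality, 53 against 20, with SAA1, PI3, CDC42EP5 and AC011513.3 far below it and BST2 above it. The limit of 10 raw counts lies at 0.756 CPM on the x axis and at 0.553 CPM on the y axis.

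The limits are counts, so members near them are close to genes that are not listed. Of the members, 14 had exactly 10 counts in a control library and 14 had exactly 3 in a USP12 library. A further 17 genes missed by 1 count in a control and 18 missed by 1 count in a USP12 library. Just inside were AC011513.3 with 236 and 10 counts against 2 and 3, ELL2P1 with 10 and 12 against 3 and 2, and TMEM30B with 10 and 10 against 0 and 3. Just outside were the growth factor EGF with 9 and 15 against 1 and 3, and the Wnt ligands WNT11 with 39 and 9 against 2 and 3 and WNT6 with 9 and 16 against 0 and 3. With the limits applied to TMM-scaled counts 50 genes were listed, 44 of them among the 73, which is 60.3% of the members and 88.0% of the scaled list. The mirrored limits, at least 10 counts in both USP12 libraries and at most 3 in both controls, were met by 66 of 14283 genes, or 0.462%, with no family left out, beside 0.595% in the direction described here. Only 59 of the 73 members passed the filter of the edgeR fit. AC011513.3, with 236 and 10 counts in the controls, did not.

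Levels of different genes can be compared per length. In control CPM per kb of annotated exon, the median of the members was 0.462, beside 4.10 over genes that passed the control limit and 0.649 over the low ones. BST2 at 26.3, SAA1 at 10.3, PI3 at 10.1 and NMUR2 at 8.66 led, apart from AC011513.3 at 33.2, whose annotated exons span only 277 bases and whose locus overlaps CEACAM5 and CEACAM6 on the same strand. Those had 1930 and 695 counts against 4 and 6, and 27523 and 23680 against 335 and 359, so the counts of AC011513.3 cannot be told apart from theirs. At the other end, MGAT4C lay at 0.0562.

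The members' promoters were poorer in CpG than those of the genes they were drawn from. This was read in windows from 250 bases before to 50 bases after the 5′ end that GENCODE release 44 gives, in the 71 annotated members. A window was called CpG-rich where its GC content was at least 50% and its CpG count was at least 0.6 of that expected from its bases. That held for 27 members, or 38%, beside 67.3% of 13858 genes that passed the control limit and 54.6% of 2646 of them below 5 CPM. Over protein-coding genes alone the shares were 42.4%, 70.5% and 60.8%. The median number of CpG in a window was 7 for the members, 22 for all and 17 for the low genes, while median GC content was 57.7%, 62.3% and 60.3%. Among the genes with a sequence printed above, the windows of MGAM2 and BST2 lay outside the CpG-rich class and those of HK2 and CHST2 in it. The NMUR2 window also lay outside it, but that window is not the stretch printed. Also in the CpG-rich class were ANKRD30A, HCN4, UNC5A, CACNA1B, KCNJ12 and PAG1, and outside it SAA1, SAA2, PI3, GAL, VTCN1 and MYO7B. A low control level goes with fewer CpG by itself, as the low genes show. These low genes are not matched to the members in level. Their median control level was 2.43 CPM, beside 1.45 CPM for the 71 annotated members, and some members, such as BST2, lay above 5 CPM. No test was made of the remaining gap.

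Short sequence motifs were counted in the same windows on both strands. The TATA box TATAAA occurred in 13 members, or 18.3%, beside 7.96% of all and 10.5% of the low genes. Among the 13 were MGAM2, NMUR2, SAA1, SAA2, VNN1 and PLAC8. For NMUR2 the match lay in the GENCODE window, not in the printed stretch. The GC box GGGCGG occurred in 49.3% of members, beside 60.1% and 50.9%, the CCAAT box in 38%, beside 35.8% and 34.7%, and the E-box CANNTG in 76.1%, beside 63.4% and 65.7%. The core TGACG of the cAMP response element occurred in 16.9%, beside 30.1% and 24.2%, and the ETS core CCGGAAG in 5.63%, beside 15.2% and 10.5%. Both of these letters contain a CpG, and the GC box does so as well. The NF-kB site occurred in 10 members, or 14.1%, beside 12.4% and 12.6%, so its share was near that of the other genes. SAA1, SAA2, PI3, BST2 and CD74 were among the 10. The interferon-stimulated response element core occurred in 5 members, or 7.04%, beside 3.10% and 3.59%: BST2, GALNT3, C2CD4A, ZMYND15 and ZNF391. The interferon gamma activated site TTCNNNGAA occurred in 11.3%, beside 6.83% and 7.11%, the AP-1 site TGANTCA in 9.86%, beside 5.12% and 5.86%, the GATA motif AGATAA in 5.63%, beside 6.82% and 7.56%, and the FOX motif TGTTTAC in 0 of 71, beside 2.68% and 2.38%.

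**Figure D4:**
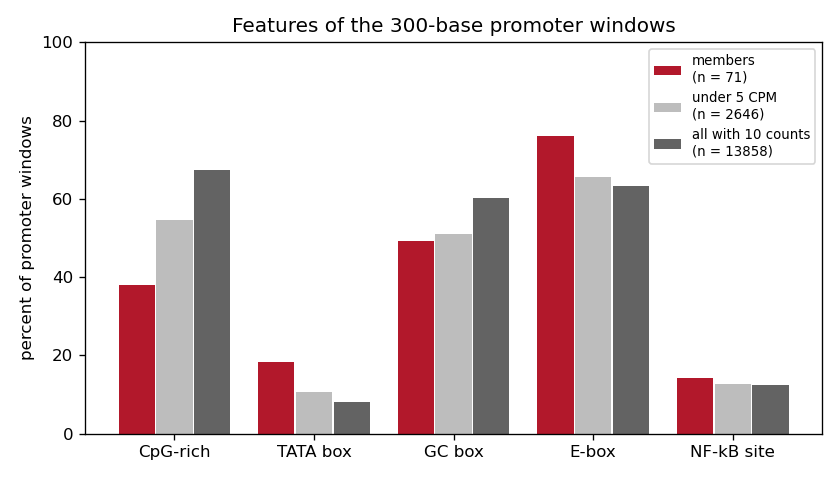
Percent of 300-base promoter windows that are CpG-rich or hold a TATA box, GC box, E-box or NF-kB site, for 71 members, for 2646 genes below 5 CPM and for all 13858 genes with at least 10 counts in both controls. The CpG-rich share is lowest in the members at 38% and the TATA share highest at 18.3%, while the NF-kB share is much alike in the 3 groups.

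The members were scattered over the genome. They lay on 21 chromosomes, and 8 of 71, or 11.3%, had another member within 1 Mb, beside 8.93% of the genes that passed the control limit. Those 8 were the pairs SAA1 and SAA2, PODN and SLC1A7, ZFP3 and ZMYND15, and BST2 and CPAMD8. Another gene overlapped 6 members on the same strand, or 8.45% beside 17.4%, and 13 on the opposite strand, or 18.3% beside 39.3%. The median exon length was 3853 bases, beside 5088 over the genes that passed the control limit. Over those of them below 5 CPM it was 3746, near that of the members. The median GC content of the longest transcript was 51.8%, beside 48.5% over both of these groups.

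Most genes next to a member differed little between the groups. Neighbours were the nearest tested genes on the left and right of a member that did not themselves meet the count limits. Another member was therefore passed over, also where it lay closer, whereas all genes tested include the members in the edgeR fit. Over 141 such pairs, the median log2 fold change of the neighbour was -0.16, beside -0.06 over all 15222 genes tested. In 22 pairs, or 15.6%, the neighbour was lower by more than 1 on the log2 scale, beside 9.99% of all genes tested, and in 7, or 4.97%, it was higher by more than 1, beside 7.13%. MGAM, 4971 bp from MGAM2, had a log2 fold change of -2.05 (SE 0.47). BISPR, a long non-coding RNA gene 56 bp from BST2 on the opposite strand, had 27 and 68 counts against 1 and 5, with a log2 fold change of -3.74 (SE 0.99). Among the neighbours of the other genes plotted by library, ZNF704 beside PAG1 was at -1.55 (SE 0.47), MAP2K3 beside KCNJ12 at -1.43 (SE 0.44), ARAP2 beside C4orf19 at -2.04 (SE 0.75), and NAMPTP1 beside ANKRD30A at -1.35 (SE 0.50). TIGD1 beside ECEL1 was at 1.14 (SE 0.65) and LIMS2 beside MYO7B at 1.96 (SE 1.45). SGK494, which overlaps SLC13A2 on the opposite strand, was at 0.99 (SE 0.66).

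Further pairs of a member and its neighbour were picked after their values were seen. The pseudogene CES1P1 had 85 and 15 counts against 0 and 0, and the carboxylesterase CES1, 8891 bp away, had 1210 and 149 against 0 and 7. EPB41L4A-AS2 had 24 and 15 counts against 0 and 0, and EPB41L4A, 270 bp away, had 802 and 1516 against 241 and 232. RP11-379F4.7 had 17 and 10 against 0 and 0, and its neighbours RARRES1 and LXN had 1970 and 1322 against 225 and 249, and 4413 and 1772 against 724 and 550. C1orf226, next to SH2D1B, had 238 and 101 against 5 and 9. On both sides of FRMPD4, by contrast, the neighbours were higher, with MSL3 at 115 and 262 counts against 472 and 430 and PRPS2 at 339 and 199 against 712 and 635. No adjusted p of any of these neighbours was under 0.05.

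Genes of 6 pathway lists that are not members were read in the edgeR quasi-likelihood fit, which called 0 of 141 of them at an adjusted p under 0.05. At an unadjusted p under 0.05, 48 of the 141 were lower and 0 higher, beside 4.55% lower and 3.04% higher over all genes tested. The lists were chosen with results of these data known, so their counts are not independent of the direction. The genes of the silencing machinery, DNA methyltransferases, TET enzymes, Polycomb subunits, histone deubiquitinases and deacetylases among others, had a median log2 fold change of -0.08 over 37 tested, with 1 lower at an unadjusted p under 0.05, and leaving out control replicate 1 moved the median to -0.14, control replicate 2 to 0.29. The Polycomb subunit CBX2 had 847 and 618 counts against 313 and 357 (adjusted p 0.703 in edgeR).

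The interferon-stimulated list, of which BST2 is the one member, had a median of -1.37 over 33 tested non-members, with 11 lower at an unadjusted p under 0.05. Leaving out control replicate 1 moved the median to -2.31 and leaving out control replicate 2 to -0.47, where 4 genes were called higher at an adjusted p under 0.05, so its size rests on which control is used. HLA-B, an MHC class I heavy chain, had 576 and 1259 counts against 70 and 72 (adjusted p 0.163 in edgeR) and HLA-F had 124 and 250 against 10 and 13 (adjusted p 0.182 in edgeR). The list of NF-kB targets, which holds SAA1 and SAA2, had a median of -1.30 over 34 non-members, with 12 lower at an unadjusted p under 0.05. Here the median was -0.56 without control replicate 1, where 2 genes were called higher at an adjusted p under 0.05, and -1.90 without control replicate 2, where 1 was. LCN2, the siderophore-binding lipocalin, had 19488 and 4061 counts against 170 and 130 (adjusted p 0.182 in edgeR) and the chemokine CXCL3 had 828 and 494 against 67 and 59 (adjusted p 0.201 in edgeR).

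The list of mucous secretory genes held no member, but it also held no gene of the families left out of the choice. Of its 18 tested genes 16 were lower at an unadjusted p under 0.05, with a median of -3.84. PARM1, a mucin-like membrane protein, had 1433 and 1894 counts against 80 and 75, and CREB3L1, a transcription factor of secretory cells, had 3850 and 2115 against 21 and 31, both with an adjusted p of 0.0975 in edgeR. Liver-type secreted products, also listed without the left-out families, held no member either. Their median was -0.80 over 17, with 7 lower at an unadjusted p under 0.05. The fibrinogen chain FGG had 1428 and 1989 counts against 373 and 327 (adjusted p 0.199 in edgeR) and SERPINA3 had 2174 and 321 against 22 and 21 (adjusted p 0.232 in edgeR). Of the cancer-testis genes outside the MAGEA and CSAG families, 3 were tested and 2 of them were lower at an unadjusted p under 0.05, XAGE1A with 1341 and 986 counts against 406 and 360 (adjusted p 0.424 in edgeR) and XAGE1B with 387 and 329 against 91 and 125 (adjusted p 0.426 in edgeR). With all 4 libraries, none of the 6 lists had a tested gene that was higher at an unadjusted p under 0.05.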

How the data were processed

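The authors deposited raw counts, the uniquely mapped fragments on each of 50868 genes, 1 file for each of 4 libraries (2 control, 2 USP12). Per the study's methods, stranded mRNA libraries were trimmed and cleared of ribosomal reads with Seqtk, mapped to GRCh38 with HISAT2 2.0.4 and counted with StringTie 1.3.0. Which annotation release was used, and whether strand was, is not given in the sources used here, so overlapping, antisense and near-identical genes are uncertain.

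From the counts, levels were computed as CPM scaled by edgeR's TMM factors (R 4.3.3, edgeR 4.0.16). All genes that passed filterByExpr entered edgeR's quasi-likelihood test, with Benjamini-Hochberg adjustment over 15222 genes. These include 59 members, whose own p-values are not given because the counts chose them. SEs are approximate. The script was tested on simulated data. Totals of 14280081 to 16305356 counts put a floor of 3 counts at 0.166 to 0.227 CPM. Positions came from GENCODE release 44, matched by identifier, and printed promoters from RefSeq (GRCh38.p14), whose table held 41 of the 73 members; promoter windows were therefore read from the genome at the GENCODE 5′ ends.

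The members and lists were chosen with earlier results of these data known. Named in full were the 20 protein-coding members with the highest level in their lower control library and members in a list; from each list the 2 genes with the smallest p were named, and for the 20, neighbours that also fell or overlap. A few genes under this rule are not reported here. Relatives of members, and neighbours other than these, were chosen after their values were seen. Alternatives were edgeR's exact test, other filters, size factors and the Wald test of DESeq2 1.42.0, a replicate block, other count limits, protein-coding members alone and leaving out each library. The comparison with genes below 5 CPM was added after the data were seen.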

Additional observations from a re-analysis of the deposited data

How the results depend on the processing

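The number of listed genes follows the count limits. It was 126 with at most 5 counts in both USP12 libraries, 29 with 0 in both, 13 with at least 20 in both controls and 218 with at least 5, and between 126 and 287 when 1 library was left out (226 without control replicate 1, 287 without control replicate 2, 126 without USP12 replicate 1 and 190 without USP12 replicate 2), where fewer libraries have to meet the limits. With scaled counts it was 50, and with no family left out 83. The median control level of the members, 1.43 CPM, became 0.941 when control replicate 1 was left out and 1.66 when replicate 2 was, each the median in the library that remains. Of the 20 genes shown by library, the bound or ratio with USP12 counts set to at least 3 moved by more than the spread between control libraries for SAA1, from 51.9 to 6.28, and UNC5A, from 21.9 to 4.97, both without control replicate 1. No promoter share moved beyond its 95% interval with protein-coding members alone, but these 59 are part of the 71, which left little room to move.

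The count of genes called over the whole table depended on the fit. The quasi-likelihood fit called 0 lower and 0 higher, also after size factors of DESeq2 or a filter of 10 counts in each library. Keeping low genes gave 361 lower and 167 higher, DESeq2's own test 273 and 133, the exact test of edgeR 262 and 167, and the range was between 28 and 2612 lower and between 12 and 2550 higher when 1 library was left out, in a fit where the lone library of a group is assumed to vary like the other group. For the 6 lists without members, the same settings called 44, 34 and 31 genes lower and 0 higher, and leaving out 1 library called between 5 and 66 lower and between 0 and 18 higher. The fit with low genes kept, and those without a USP12 library, took the dispersion from the trend alone (infinite prior degrees of freedom). The cause of the differing counts was not tested. USP12 itself had a log2 fold change of 6.33 with low genes kept (adjusted p 3.32e-32), 6.31 with DESeq2 (adjusted p 3.04e-30) and 6.32 with the exact test (adjusted p 6.1e-18), and between 5.85 and 7.06 when 1 library was left out.

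The groups share replicate numbers 1 and 2, but nothing in the labels says that a number marks a shared culture or day, and the deviations of same-numbered libraries from their group means had a correlation of 0.15. A replicate block in the fit called 251 genes lower and 153 higher, and 30 list genes lower and 0 higher. That fit took the dispersion from the trend alone (infinite prior degrees of freedom). USP12 then had a log2 fold change of 6.43 (adjusted p 8.29e-34 in edgeR). The members' own values were given no test with or without the block, since the count limits chose them from this contrast.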
